A study of Schizosaccharomyces pombe with 4 samples.

Results

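The genes described here carry the pheromone functions of the M mating type of fission yeast (Schizosaccharomyces pombe). They are 7 genes chosen by name out of 7092 in the deposited expression table: mfm1, mfm2 and mfm3, which encode M-factor precursors, mam1 and mam4, which act in M-factor export and maturation, mam2, the receptor for P-factor, and sxa2, a protease that breaks P-factor down. All 7 were read in both groups, and none was called different in the authors' deposited table.

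RNA was compared between cells labelled as carrying pREP41 with Atf1 and cells labelled as carrying empty pREP41, with 2 libraries in each of the 2 groups. pREP41 is a plasmid whose nmt1 promoter is active once thiamine is withdrawn, and all cultures spent 24 h at 30 °C without thiamine after a night with 20 µM of it. Per the labels, every library came from the same background, h90 with ade6, leu1 and ura4 alleles and with pcr1 replaced by ura4+, so there is no wild type among the groups. The series title poses the question of what Atf1 over-expression does to transcription in cells lacking pcr1, the gene of Atf1's usual bZIP partner. Whether a group's libraries were separate cultures is not stated in the labels. The files give 1 pooled FPKM per gene and group (fragments per kilobase of transcript and depth), so each level below is the authors' value, without a spread between libraries.

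Mating in fission yeast begins when nitrogen-starved cells of opposite mating type exchange diffusible peptides. M cells secrete M-factor, a farnesylated and carboxyl-methylated peptide, and sense P-factor through a G-protein-coupled receptor, while P cells do the reverse. Homothallic h90 cells switch mating type as they divide, so 1 culture holds M and P cells side by side. M-cell genes are transcribed under the HMG-box factors Ste11 and Mat1-Mc, and Ste11 itself is induced by starvation and stress signals.

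The genotype genes did not all follow the labels, which bears on every difference below. RNA of atf1, whose locus holds 2 genes, was at 54.4 FPKM in libraries labelled Atf1 and 60.9 FPKM in libraries labelled vector. The level of pcr1 was 66.4 and 35.8 FPKM in libraries labelled Atf1 and vector, although both groups are labelled as deleted for it. The marker ura4 was listed at 0 in Atf1-labelled libraries and at 124.8 FPKM in vector-labelled ones. FPKM of all genes added up to 1321551 in Atf1-labelled libraries and 835070 in vector-labelled ones, and 49 structural RNAs (tRNA, rRNA, snRNA and snoRNA) had a median difference of 2.72 on the log2 scale. The part of these differences in the values of the M-cell genes was not tested. Differences are log2(FPKM + 1), Atf1 label minus vector label, a scale that understates the change of low genes.

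The 3 M-factor precursor genes are shown by their coding sequences, because they make the same peptide from different RNAs and their levels differed from each other. The sequences are those of RefSeq (assembly ASM294v3), read by the gene's locus tag and spliced, 5′ to 3′, and the capitals mark the 27 bases of the mature M-factor.
mfm1: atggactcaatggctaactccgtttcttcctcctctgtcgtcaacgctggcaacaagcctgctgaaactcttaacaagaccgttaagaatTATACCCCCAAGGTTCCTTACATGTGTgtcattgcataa
mfm2: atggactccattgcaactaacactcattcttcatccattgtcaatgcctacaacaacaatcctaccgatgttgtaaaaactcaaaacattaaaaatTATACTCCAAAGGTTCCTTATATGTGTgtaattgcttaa
mfm3: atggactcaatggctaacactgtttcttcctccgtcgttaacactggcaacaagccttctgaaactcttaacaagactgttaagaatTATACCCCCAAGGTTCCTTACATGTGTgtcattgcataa
In ASM294v3 these lie at chrI:4917099-4917298 on the plus strand for mfm1, chrI:2913008-2913184 on the minus strand for mfm2 and chrII:700364-700556 on the plus strand for mfm3, each span including 1 intron.

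The precursors had 42 codons in mfm1, 44 in mfm2 and 41 in mfm3, without the stop codon. The 27 capital bases translate to the same 9 residues in all 3 genes. They are followed by 3 codons, the end of the motif that directs farnesylation of the preceding cysteine. Between mfm1 and mfm3 none of the 27 bases differed, and between mfm2 and either of them 3 did. Over the whole coding sequence mfm1 and mfm3 were identical at 120 of 129 aligned positions (93.0%), against 98 of 144 (68.1%) for mfm1 and mfm2 and 99 of 142 (69.7%) for mfm2 and mfm3. The longest run of bases shared by the spliced RNAs of mfm1 and mfm3 was 48 bases, and 11 bases for each of the other pairs. The 1 intron, of 71, 42 and 67 bases in mfm1, mfm2 and mfm3, sat after base 26 of the mature part in each gene. The spliced RNA annotated in ASM294v3 was 436 bases for mfm1, 447 for mfm2 and 270 for mfm3, for which no 5′ untranslated part is annotated.

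**Figure D1:**
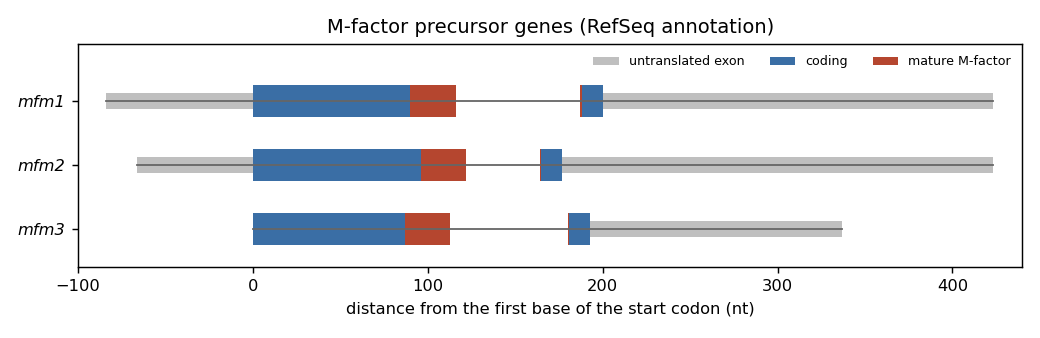
The M-factor precursor genes as annotated by RefSeq, with the distance from the first base of the start codon in nucleotides on the x axis and the genes mfm1, mfm2 and mfm3 from top to bottom. Thin grey bars are untranslated exon, tall bars are coding sequence with the mature M-factor in red, and the line between bars is the intron, which lies at the same place of the mature part in all 3 genes.

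The letters TTCTTTGTT, part of the binding element of Ste11 known as the TR box, were found on either strand in the 250 bases before the annotated gene start of 3 of the 7 genes, mfm1, mfm3 and mam4. Of 5112 protein-coding genes of ASM294v3 with a window of that length, 83 (1.62%) held them. The matched places are shown with 10 bases on each side, read along the strand of the gene, with the match in capitals, since those of mfm1 and mfm3 resemble each other beyond the match itself. A match is a description of letters and not a shown binding site.
mfm1: gggtccgaccAACAAAGAAgtctcagttt
mfm3: aggcccaaccAACAAAGAAgtctcagatt
mam4: agtatttgaaTTCTTTGTTatatcgaggt
mam4: gagtatgattTTCTTTGTTttacttccct
In ASM294v3 these stretches are chrI:4916926-4916954 for mfm1, chrII:700190-700218 for mfm3, and chrI:1230433-1230461 and chrI:1230321-1230349 for mam4.

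The match began 163 bases before the start codon of mfm1 and 164 bases before that of mfm3, and in both it lay on the strand opposite to the gene. The matches of mam4 began 381 and 269 bases before its start codon, on the gene's own strand. The 250 bases before the start codon were identical at 81.4% of aligned positions between mfm1 and mfm3, against 58.4% between mfm1 and mfm2 and 55.8% between mfm2 and mfm3. The genes mfm1 and mfm3 therefore share most of their coding and upstream letters, while mfm2 stands apart from both. The letters TGACGT, the core of the element that Atf1 and Pcr1 bind, were in none of the 7 windows, against 282 of 5112 windows (5.52%). For mfm3 and mam2 no 5′ untranslated part is annotated, so their windows end at the start codon.

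Among the precursors, mfm1 and mfm2 had nearly the same level in both groups, while mfm3 was lower by value in libraries labelled Atf1, without a call. The level of mfm1 (SPAPB8E5.05, locus chrI:4916603-4917521, ASM294v2) was 222 FPKM in Atf1-labelled libraries and 195 FPKM in vector-labelled ones. The level of mfm2 (SPAC513.03, chrI:2912762-2913270) was 314 FPKM in Atf1-labelled libraries and 290 FPKM in vector-labelled ones. Both were slightly higher in Atf1-labelled libraries, by 0.19 and 0.11 on the log2 scale, and each is alone in the locus that Cuffdiff, the authors' quantification tool, assigned to it. The authors' deposited table gives mfm1 an unadjusted p = 0.757 and mfm2 an unadjusted p = 0.834, with q = 0.997 for both. Under quantile normalization and with equal FPKM totals both differences turn negative, so no direction can be given for these genes.

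The level of mfm3 (SPBPJ4664.03, chrII:700027-707245) was 104 FPKM in Atf1-labelled libraries and 361 FPKM in vector-labelled ones. That is 3.47 times higher in libraries labelled vector, a difference of -1.78, and 1.6% of the 6219 tested genes had a more negative one. Tested here means that the table's status was OK and that the groups averaged 1 FPKM or more, which all 7 genes met. The authors' deposited table nevertheless gives mfm3 an unadjusted p = 0.560 and q = 0.997, so it was not called. Its locus holds 4 genes, among them the noncoding RNA mfm3-antisense-1 (SPNCRNA.1381), listed on the minus strand at chrII:700027-701807. This antisense RNA covers all 337 bases of the mfm3 gene in ASM294v3, and was itself at 4.44 FPKM in Atf1-labelled libraries and 10.6 FPKM in vector-labelled ones. The library kit keeps strand, but whether the authors' counting used it was not stated in the sources used here, so the values of mfm3 and its antisense partner are uncertain. Further along the locus, the vesicle coat gene cop1 was at 47.0 FPKM in Atf1-labelled libraries and 43.9 FPKM in vector-labelled ones, and SPBPJ4664.05 was at 30.3 and 39.5 FPKM in the same order of labels. The differences of these 3 neighbours were -1.09 for the antisense RNA, -0.37 for SPBPJ4664.05 and 0.096 for cop1, the last with a sign that turns at equal FPKM totals, and none was as negative as that of mfm3.

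The 3 precursors together came to 640 FPKM in Atf1-labelled libraries and 846 FPKM in vector-labelled ones. Without mfm3, the sum was 536 FPKM in Atf1-labelled libraries and 485 FPKM in vector-labelled ones. The ratio of Atf1-labelled to vector-labelled libraries was 0.756 for the whole sum and 1.10 for the sum without mfm3. With quantile normalization these ratios were 0.441 and 0.679, and with equal FPKM totals 0.472 and 0.689, so the sum without mfm3 has no direction that holds under every scaling. The gene mfm3 gave 16.3% of precursor FPKM in Atf1-labelled libraries and 42.7% in vector-labelled ones. The share of mfm1 was 34.7% and 23.1%, and that of mfm2 was 49.0% and 34.3%, in Atf1-labelled and vector-labelled libraries. The order of levels was mfm2, mfm1, mfm3 in Atf1-labelled libraries and mfm3, mfm2, mfm1 in vector-labelled ones. Because mfm1 and mfm3 share runs of up to 48 bases, how the authors' counting divided reads between them can affect both values, and its part was not tested. These shares take each FPKM as a level per length, and for RNAs as short as these the estimate depends on the fragment lengths assumed, which are not given in the sources used here.

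**Figure D2:**
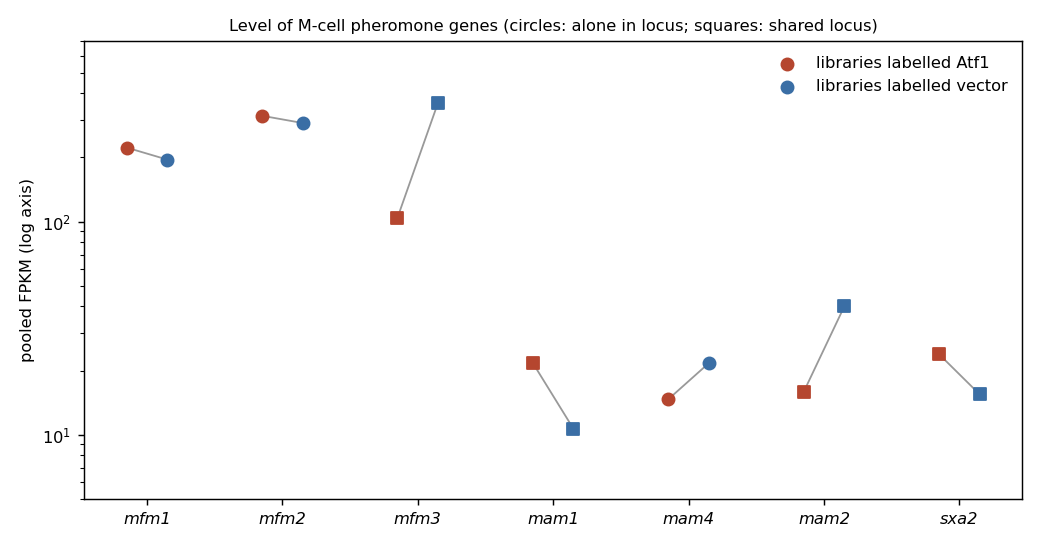
Pooled FPKM on a log axis for each of the 7 genes, in libraries labelled Atf1 (red, left) and labelled vector (blue, right), with a line joining the 2 values of a gene. Circles are genes alone in their locus and squares are genes that share one. The 3 precursor genes sit between 104 and 361 FPKM and the other 4 genes between 10.7 and 40.0 FPKM.

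**Figure D3:**
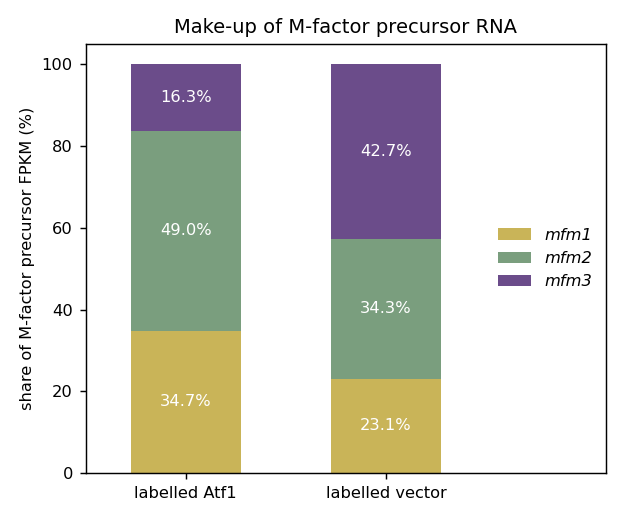
Share of the summed FPKM of mfm1, mfm2 and mfm3 that each gene contributed, in percent, in libraries labelled Atf1 (left) and labelled vector (right). The mfm3 share is 16.3% on the left and 42.7% on the right.

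All 3 precursor genes were among the more abundant messenger RNAs. In libraries labelled Atf1, 89.0% of 4965 tested protein-coding genes lay below mfm1, 91.0% below mfm2 and 81.9% below mfm3. In libraries labelled vector, 90.4% lay below mfm1, 92.9% below mfm2 and 94.1% below mfm3. Of the other 4 genes, 40.9% to 54.3% of protein-coding genes lay below in libraries labelled Atf1, and in libraries labelled vector mam2 was the highest of them, with 65.6% below.

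The genes that turn the precursor into secreted M-factor lay on opposite sides of 0, and neither was called. Mam1 is an ABC transporter that exports M-factor, and Mam4 is the isoprenylcysteine methyltransferase that methylates its carboxyl end. The level of mam1 (SPBC25B2.02c, chrII:2594358-2605899) was 21.7 FPKM in Atf1-labelled libraries and 10.7 FPKM in vector-labelled ones, a ratio of 2.04 and a difference of 0.96. The level of mam4 (SPAC10F6.12c, chrI:1229095-1230361) was 14.7 FPKM in Atf1-labelled libraries and 21.7 FPKM in vector-labelled ones, a difference of -0.53. In the authors' deposited table mam1 has an unadjusted p = 0.401 and mam4 an unadjusted p = 0.311, each with q = 0.997.

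The value of mam1 is uncertain, because its locus holds 8 genes. The translation rescue gene hbs1 overlaps the end of mam1 by 48 bases on the opposite strand in ASM294v3, and was at 15.5 FPKM in Atf1-labelled libraries and 27.3 FPKM in vector-labelled ones. The noncoding RNA SPNCRNA.1533 was at 52.4 and 35.3 FPKM, and SPBC25B2.03 was at 78.0 and 44.2 FPKM, in Atf1-labelled and vector-labelled libraries. The mitochondrial GTPase gene mtg1 was at 4.48 and 9.21 FPKM in the same order of labels. The noncoding RNAs mfg1-antisense-1 and SPNCRNA.539 were at 4.08 and 2.63 FPKM in Atf1-labelled libraries and at 5.74 and 2.11 FPKM in vector-labelled ones, and SPNCRNA.1534 was listed at 0 in both groups. Genes of this locus thus lay on both sides of 0, with the opposite-strand neighbour hbs1 on the other side from mam1. The gene mam4 is alone in its locus in the deposited table, although ASM294v3 annotates an antisense noncoding RNA, SPNCRNA.2539, over all 1178 bases of it. Long antisense RNAs are annotated there over mam1 (SPNCRNA.5728, 3323 bases) and sxa2 (SPNCRNA.2305, 1427 bases) as well. Another noncoding RNA, SPNCRNA.2306, overlaps sxa2 by 363 bases on the same strand. No values for these noncoding RNAs were used here.

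On the P-factor side, the receptor gene mam2 was lower and the protease gene sxa2 higher by value in libraries labelled Atf1. Mam2 is the seven-pass receptor through which M cells sense P-factor, and Sxa2 is a secreted serine carboxypeptidase that inactivates it. The level of mam2 (SPAC11H11.04, chrI:4779020-4781922) was 15.9 FPKM in Atf1-labelled libraries and 40.0 FPKM in vector-labelled ones. That is 2.52 times higher in libraries labelled vector, a difference of -1.28, and 6.0% of tested genes had a more negative one. The authors' deposited table gives mam2 an unadjusted p = 0.0285 and q = 0.523. Of the 7 genes it is the 1 with an unadjusted p under 0.05, and it did not pass the adjusted threshold. Among all tested genes, 4.04% were lower in Atf1-labelled libraries at that unadjusted p, and 6.8% were higher. Its locus also holds SPAC11H11.03c on the opposite strand, at 20.0 FPKM in Atf1-labelled libraries and 26.6 FPKM in vector-labelled ones, and these genes do not overlap in ASM294v3.

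The level of sxa2 (SPAC1296.03c, chrI:711238-714070) was 23.8 FPKM in Atf1-labelled libraries and 15.4 FPKM in vector-labelled ones, a difference of 0.59. The authors' deposited table gives sxa2 an unadjusted p = 0.804 and q = 0.997. Its 3′ end overlaps 138 bases of cox4, the gene of a cytochrome c oxidase subunit on the opposite strand in the same locus. The far more abundant cox4 was at 1216 FPKM in Atf1-labelled libraries and 538 FPKM in vector-labelled ones, the same side as sxa2, so the value of sxa2 is uncertain. With equal FPKM totals the sign of sxa2 turns, to -0.052.

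Taking the 7 genes as a list, 0 were called in either direction at the authors' q under 0.05. Over all genes, 1.82% of tested genes were called higher and 0.129% lower, so a list of 7 without a call lies near that background. At least 2-fold on the log2(FPKM + 1) scale, 0 of the 7 were higher, against 15.5% of tested genes. In the lower direction 2 of the 7 passed that fold, mfm3 and mam2, against 13.1% of tested genes. The median difference of the list was 0.11, against -0.11 over all tested genes and -0.22 over tested protein-coding genes, with 4 genes above 0 and 3 below. The list's median turns negative with quantile normalization and with equal FPKM totals. The list held values from -1.78 to 0.96. Under every pseudocount and scaling tried mam1 lay above 0 and mfm3, mam4 and mam2 below it, while the signs of the other 3 genes depended on the scaling.

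**Figure D4:**
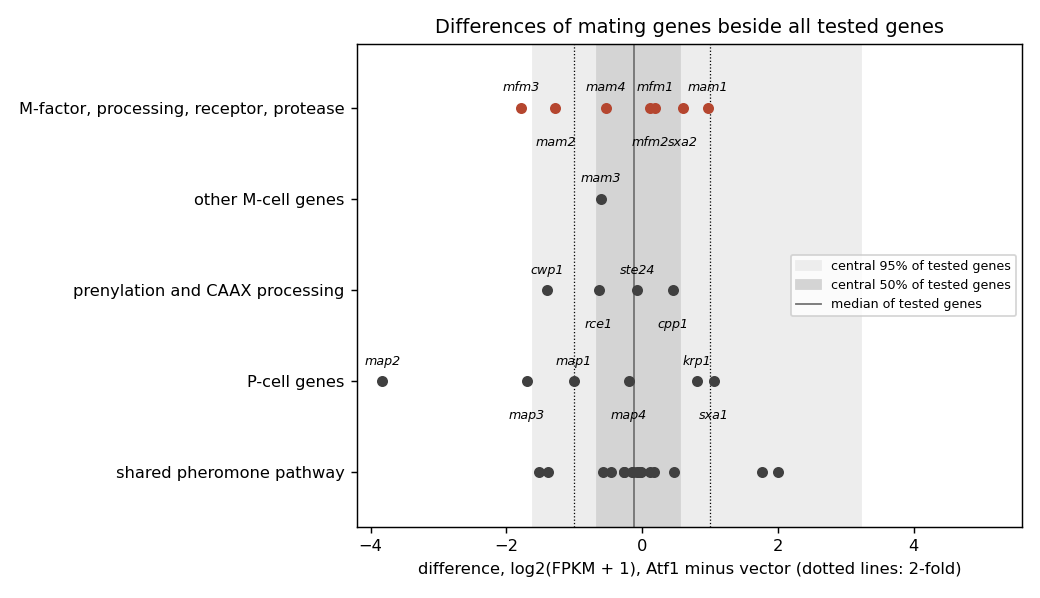
Difference in log2(FPKM + 1), Atf1 label minus vector label, for the 7 M-cell genes (red, top row) and for tested genes of 4 lists of other mating genes (dark grey). The tested P cassette genes mat2-Pc (-5.66) and mat2-Pi (-3.94) are not drawn. Light and dark grey bands hold the central 95% and 50% of 6219 tested genes, the line is their median of -0.11, and dotted lines mark 2-fold. In the top row mfm3 and mam2 lie left of the 2-fold line and mam1 lies just inside it on the right.

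The authors' p-values for a given fold differed between genes with a locus of their own and genes in shared loci, which touches 4 of the 7 genes. Of 516 tested genes alone in their locus with a difference of at least 2-fold, 77.1% had an unadjusted p under 0.05 in the authors' deposited table. Of 1262 such genes in a shared locus, 20.0% did, and of 481 in a locus of at least 4 genes, 10.4% did. The reason was not tested. Among genes averaging 10 FPKM or more, these shares were 82.1%, 29.6% and 16.2%. The p of mfm3 (0.560) and of mam1 (0.401) in the authors' deposited table were obtained in loci of 4 and 8 genes. Among tested genes averaging 100 FPKM or more, 3 others had a difference as negative as that of mfm3. The authors' deposited table gives an unadjusted p = 0.0003 to nop10, alone in its locus, p = 0.0453 to tma20 in a locus of 3 genes and p = 0.091 to mug14 in a locus of 6. The absence of a call for mfm3 and mam1 therefore does not show that their levels were equal.

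The M-cell regulator genes in the mating-type cassettes gave little signal. The gene mat1-Mc, which encodes the M-specific HMG-box factor at the expressed locus, was listed at 0 in both groups and not tested. Its silent copy mat3-Mc on chromosome II was at 1.06 FPKM in Atf1-labelled libraries and 0.121 FPKM in vector-labelled ones, so the mean over both groups was too low for it to be kept. The copy on the separate mating-type contig was listed at 0 in Atf1-labelled libraries and at 0.0792 FPKM in vector-labelled ones. The coding sequences of mat1-Mc and mat3-Mc were identical at 546 of 546 positions in ASM294v3, so reads cannot be assigned to a copy and these values are uncertain. The small genes mat1-Mm and mat3-Mm were listed at 0 in every copy and group. The P cassette genes mat2-Pc and mat2-Pi were listed at 0 in Atf1-labelled libraries and at 49.6 and 14.3 FPKM in vector-labelled ones. Both are called lower at q = 0.00809 in the authors' deposited table. The P genes of the expressed locus, mat1-Pc and mat1-Pi, were not listed. From which copy the RNA read as mat2-Pc and mat2-Pi came is therefore uncertain.

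Most listed markers of both mating types had values above 0 in both groups, but in Atf1-labelled libraries the P-cell markers were low apart from sxa1. In those libraries map1, map2, map3 and map4 were at 9.19, 2.59, 1.59 and 7.54 FPKM. The P cassette genes mat2-Pc and mat2-Pi, which are not among these markers, were at 0 in Atf1-labelled libraries. Of the M-cell markers mat1-Mm was at 0 in both groups. The 8 M-cell markers (mfm1 to mfm3, mam1 to mam3, sxa2 and mat1-Mm) summed to 706 FPKM in Atf1-labelled libraries and 920 FPKM in vector-labelled ones. Without the precursors they summed to 65.9 and 73.4 FPKM in Atf1-labelled and vector-labelled libraries. The remaining M-cell marker, mam3, which encodes the M-type sexual agglutinin, was at 4.44 and 7.28 FPKM. Of 6 P-cell markers 5 were in the table, all but mat1-Pi. These summed to 314 FPKM in Atf1-labelled libraries and 226 FPKM in vector-labelled ones. Most of that sum was sxa1. Without it, map1 to map4 summed to 20.9 FPKM in Atf1-labelled libraries and 85.6 FPKM in vector-labelled ones, the opposite direction. With equal FPKM totals the sum with sxa1 was lower too, at a ratio of 0.867 of Atf1-labelled to vector-labelled libraries. In such bulk RNA, fewer cells of a mating type, less RNA per cell and a genotype that differs from the labels cannot be told apart.

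The genes listed for P-cell functions lay on both sides of 0. Under every scaling tried, sxa1 and krp1 were above it and map1 to map4 below it. Of 6 tested, 0 were called, against 1.82% of all tested genes called higher and 0.129% called lower. Their median difference was -0.60, against -0.11 over all tested genes. The 2-fold mark was passed by 1 gene in the higher direction, sxa1, and by 3 genes in the lower direction, map2, map3 and map1, against 15.5% and 13.1% of all tested genes. For sxa1 and map1 this depended on the scaling. The difference of map1 was -0.89 under median-of-ratios scaling and -0.83 under quantile normalization. That of sxa1 was 0.51 under quantile normalization and 0.38 at equal FPKM totals. The P-factor gene map2 was at 2.59 FPKM in Atf1-labelled libraries and 49.95 FPKM in vector-labelled ones, with an unadjusted p = 0.172 in the authors' deposited table and a locus shared by 2 genes. The protease gene sxa1, which acts on M-factor, was at 293 FPKM in Atf1-labelled libraries and 140 FPKM in vector-labelled ones, with an unadjusted p = 0.0521 in the authors' deposited table. The kexin-like gene krp1, whose protease cuts the P-factor precursor, is not among the P-cell markers above. It was at 65.1 FPKM in Atf1-labelled libraries and 36.8 FPKM in vector-labelled ones. The P-cell receptor gene map3 was at 1.59 FPKM in Atf1-labelled libraries and 7.41 FPKM in vector-labelled ones, with an unadjusted p = 0.456 in the authors' deposited table. The loci of krp1, map1 and map3 hold 2, 3 and 4 genes, so their values are uncertain too.

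Genes that farnesylate and trim the M-factor precursor were not called either, with 0 of 4 tested genes past the authors' threshold and 1 at least 2-fold lower. Over all tested genes, 1.82% were called higher and 0.129% lower, and 13.1% were at least 2-fold lower. The median difference of the 4 was -0.36, against -0.11 over all tested genes. The shared farnesyltransferase alpha subunit gene cwp1 was at 18.8 FPKM in Atf1-labelled libraries and 51.3 FPKM in vector-labelled ones. The beta subunit gene cpp1 was at 48.9 and 35.3 FPKM in Atf1-labelled and vector-labelled libraries. The genes rce1 and ste24, matched by locus tag and annotated as probable CAAX proteases, were at 5.50 and 45.5 FPKM in Atf1-labelled libraries and at 9.14 and 48.0 FPKM in vector-labelled ones. The gene cwg2, whose enzyme attaches the longer geranylgeranyl group, was at 0.300 FPKM in Atf1-labelled libraries and 0.719 FPKM in vector-labelled ones, too low to be kept. Of these genes cwp1, cpp1, ste24, cwg2 and rce1 lie in loci of 4, 11, 5, 3 and 2 genes, so their values are uncertain. The signs of cpp1 and ste24 also depended on the scaling, with cpp1 at -0.21 at equal FPKM totals and ste24 at 0.044 under median-of-ratios scaling.

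In the pathway shared by both mating types, 1 of 17 tested genes was called, in the higher direction, against 1.82% of all tested genes. The arrestin-like gene ste7, which is needed for mating, was higher in Atf1-labelled libraries, at 31.1 FPKM against 7.07 FPKM in vector-labelled ones, with q = 0.00809 in the authors' deposited table. The gene ste11, whose product binds the TR box, was at 28.9 FPKM in Atf1-labelled libraries and 7.78 FPKM in vector-labelled ones, with q = 0.0608 in the authors' deposited table. The adaptor gene ste4 was at 15.8 and 43.1 FPKM in Atf1-labelled and vector-labelled libraries, and the authors' deposited table gives an unadjusted p = 0.0252. Its locus holds 3 genes. Of the M-cell genes holding the TR box letters, mfm3 (-1.78) and mam4 (-0.53) lay on the other side of 0 from ste11 (1.77). The sign of mfm1 (0.19) depends on the scaling. None of these genes was called, and a relation between their levels and that of ste11 was not tested. The gene ste6, whose product activates Ras1, was at 1.42 FPKM in Atf1-labelled libraries and 5.95 FPKM in vector-labelled ones, with an unadjusted p = 0.219 in the authors' deposited table and a locus of 3 genes. The 2-fold mark was passed by 2 genes in each direction, ste7 and ste11 higher and ste4 and ste6 lower, against 15.5% of all tested genes higher and 13.1% lower. The others had differences from -0.58 for scd1 to 0.46 for scd2, among them -0.45 for byr2, -0.13 for gpa1, -0.042 for byr1 and -0.029 for ras1. The signs of scd2, byr1 and ras1 depended on the scaling. They were -0.17 for scd2 at equal FPKM totals, 0.18 for byr1 under quantile normalization and 0.090 for ras1 under median-of-ratios scaling. The median difference of the 17 genes was -0.080, against -0.11 over all tested genes.

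The directions of mfm3, mam2, mam4 and mam1 were the same under every pseudocount and scaling tried. Across them mfm3 ranged from -2.59 to -1.66, mam2 from -1.93 to -1.11, mam4 from -1.18 to -0.37 and mam1 from 0.32 to 1.13. The signs of mfm1, mfm2 and sxa2 depended on the scaling.

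**Figure D5:**
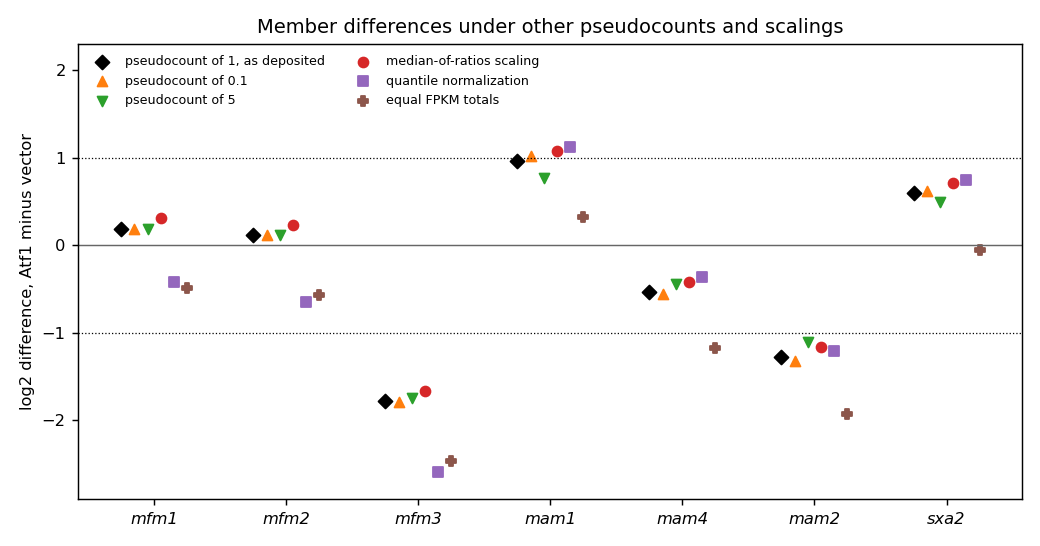
Difference of each of the 7 genes, Atf1 label minus vector label, on the log2 scale, with a marker per setting: the deposited FPKM with a pseudocount of 1, pseudocounts of 0.1 and 5, and 3 scalings of the groups. The markers of mfm3 and mam2 stay below the dotted 2-fold line, those of mfm1 and mfm2 lie on both sides of 0, and mam1 crosses the upper 2-fold line under some settings.

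By the distance between the 2 groups' log2(FPKM + 1) values, the protein-coding genes most like each member were taken from 1730 tested genes alone in their locus, a likeness over only 2 values that many genes can meet by level alone. The gene nearest to mfm3 was nop10, of a small nucleolar ribonucleoprotein, at 90.1 FPKM in Atf1-labelled libraries and 402 FPKM in vector-labelled ones. Only 3 of the 1730 genes lay within 0.5 log2 units of mfm3, against 152 for mam4, 67 for sxa2, 44 for mfm1, 42 for mam2, 30 for mam1 and 22 for mfm2. The nearest genes to the other members were scl1 for mfm1, rpl1201 for mfm2, scw1 for mam1, SPAC1B1.02c for mam4, tam5 for mam2 and mac1 for sxa2.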

How the data were processed

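RNA of 4 libraries was measured by stranded poly(A) RNA sequencing per the labels' protocols. The submitters' processing notes name HISAT2, Cuffdiff and the build ASM294v2, with no versions. Per the file headers, the authors deposited FPKM, pooled to 1 value per group, and a p-value and q-value per gene from their own comparison. FPKM were the same in both deposited tables for 7092 of 7092 genes. The depth is unknown, since no counts are given, and no test was computed here: the calls are the authors' q under 0.05. The members and lists were chosen with earlier results of these data known.

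Genes with status OK and a mean of at least 1 FPKM were kept (6219 genes). Differences used a pseudocount of 1. Genes named were the 7 members, those sharing a locus with them, in each list the called genes or up to 3 with the smallest p, and the nearest gene to each member. Other genes (map1, map3, map4, cpp1, ste24, ste11, ste4, ste6, scd1, scd2, byr2, gpa1, byr1, ras1, tma20 and mug14) were named after their values were seen. The comparison of p by locus was also added after the values were seen. Loci are those of the deposited table in ASM294v2. Sequences and gene overlaps are from RefSeq's annotation of ASM294v3, read by locus tag and never by deposited coordinates, and an end of the gene was the same in both for 7 of 7 members. Of 7092 genes, 6746 had a RefSeq biotype. Python 3.11.15, numpy 2.4.6, pandas 2.3.3, Biopython 1.88 and matplotlib 3.10.9 were used, and the counting and scaling steps were tested on simulated data. Alternatives were pseudocounts of 0.1 and 5, other filters and folds, median-of-ratios scaling, quantile normalization and equal FPKM totals.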

Additional observations from a re-analysis of the deposited data

How the results depend on the processing

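No paired analysis was possible because each group has 1 pooled value and no value per library. Leaving out libraries was not run for the same reason. Of 35 member differences under 5 alternatives, 30 kept their sign. The other 5 were mfm1 (-0.42) and mfm2 (-0.65) with quantile normalization, and mfm1 (-0.49), mfm2 (-0.57) and sxa2 (-0.052) with equal FPKM totals. The median difference of the members (0.113) was 0.1131 and 0.1113 with pseudocounts of 0.1 and 5, 0.23 under median-of-ratios scaling, -0.42 after quantile normalization and -0.57 at equal FPKM totals. The median over tested genes shifted under these scalings by 0.11, -0.070 and -0.63. No member was at least 2-fold higher, but 1 was, mam1, with a pseudocount of 0.1, median-of-ratios scaling or quantile normalization, and 2 were at 1.5-fold. Of the 2 members at least 2-fold lower, 0 were at 4-fold, and 3 were lower with equal FPKM totals. At an unadjusted p under 0.05 in the authors' deposited table, 1 member was lower and 0 higher. The other filters on low values changed no count. Apart from the stricter or looser folds, the cause was not tested. Since depth is unknown, the precision of low FPKM is too.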
